A study of Rattus norvegicus with 125 samples.

Results

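The hearts of rats killed 1 h after a whole-body exposure to phosphine gas were compared with those of rats that breathed air in the same way. The comparison holds 8 of the 125 arrays of the series, all those whose titles name heart at 1 h, with 1 array per rat and 4 rats per group. The rats were adult male Sprague-Dawley animals. The 4 PH3 rats (numbers 98, 109, 115 and 116) were exposed to 387 ppm for 40 min, a concentration-time product of 15480 ppm × min that the submitters call low, and the 4 Air rats (96, 107, 163 and 168) to 0 ppm for 40 min. All rats were given ketamine and xylazine and were bled before the tissue was frozen, so the controls carry the anaesthetics too. The labels also say that blood was drawn by heart stick. The arrays were Affymetrix rat 3' arrays and the values are deposited log2 signals after RMA. That procedure summarises the probes of each probe set on a scale shared by the arrays normalised together. The sources do not say which arrays those were. Of 31139 probe sets, 19068 had 1 gene symbol in the platform annotation, and the probe set with the highest mean in heart was taken for each of 13438 genes. A difference is given as PH3 minus Air on the log2 scale ± the standard error of the limma fit, so that 1 is 2-fold in array signal. Passing means a Benjamini-Hochberg adjusted p under 0.05 over all 13438 genes in that fit, which takes its spread from all 29 heart arrays of the series.

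Phosphine is a fumigant gas best known for blocking cytochrome c oxidase, the last enzyme of the mitochondrial respiratory chain, and the heart lives almost wholly on that chain. An acute exposure is also a stressor, and stress releases adrenal glucocorticoids and catecholamines into the blood. Glucocorticoids enter cells, bind the glucocorticoid receptor and turn on a well-known set of genes within the first hour, among them Fkbp5, a co-chaperone that feeds back on the receptor itself. Catecholamines act through cyclic AMP and the factor CREB, which induces immediate early genes. In the fasting or stressed heart, Pdk4 closes the entry of pyruvate into the mitochondrion and so leaves fatty acids as the fuel.

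The arrays carried the labelled tissue. The 13 cardiomyocyte markers had list means of 12.99 to 13.16 in Air and 13.06 to 13.16 in PH3, near the highest signal used, 14.41. Myh6, the main cardiac myosin of the adult rat, stood at 13.63 ± 0.08 (SD, n = 4) in Air and 13.62 ± 0.07 (SD, n = 4) in PH3. The 8 arrays correlated pairwise at 0.975 to 0.992. Their medians ran from 5.08 to 5.24, and 4 quality measures gave no difference between the groups that passed (exact two-sided permutation tests over 70 arrangements, adjusted p = 0.743 for each). The smallest raw p the design allows is 0.0286, so a single measure at that floor could not pass after adjustment over the 4. These tests could therefore not show that the groups were alike in quality. Precision is limited by the number of arrays. In bulk tissue, fewer cells of a type and less RNA per cell cannot be told apart.

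At 1 h few genes passed. Pdk4, Fkbp5, Sox17, Irf2bp2, Cebpb, Klf4 and Id1 passed, all 7 higher in PH3 (0.0521% of the genes tested), and 0 genes passed as lower. At an unadjusted p under 0.05, 476 genes were higher (3.54%) and 609 lower (4.53%), while chance alone gives 671.9 in all. The median difference over all genes was -0.02, with 6113 positive and 7325 negative.

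**Figure D1:**
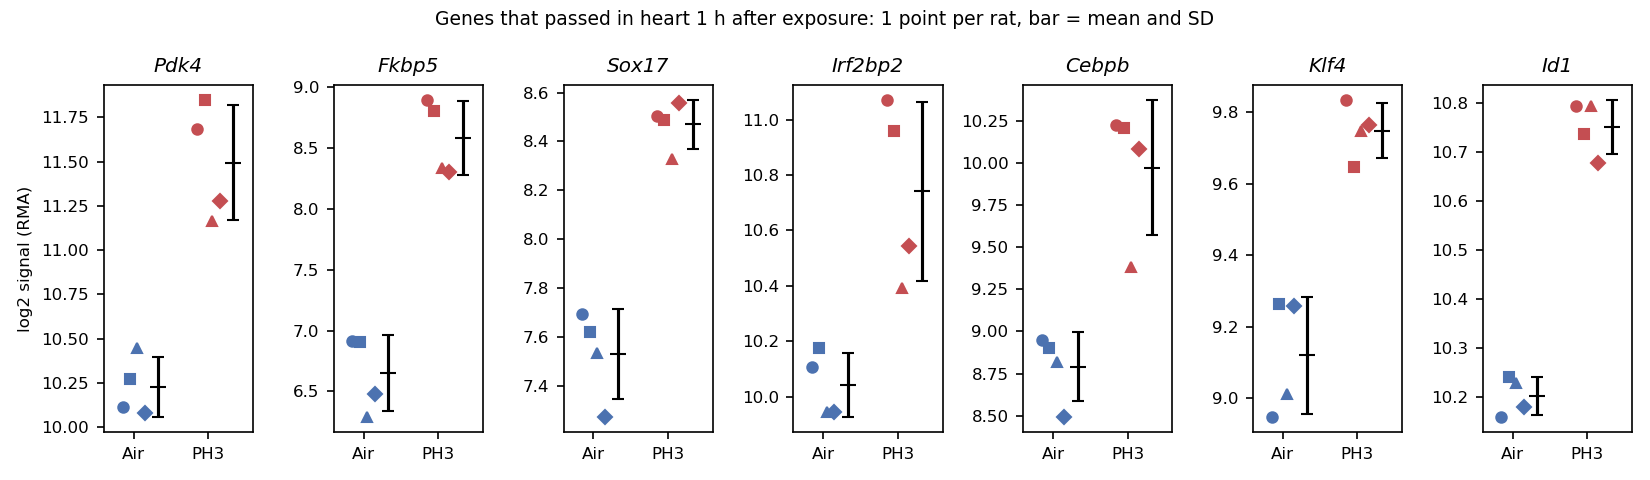
Log2 signal (RMA) of the 7 genes that passed in heart at 1 h, 1 point per rat (Air blue, PH3 red; within a group the circle, square, triangle and diamond are the rats in order of number), with mean and SD beside the points; each panel has its own vertical scale. In each panel the lowest PH3 rat lies above the highest Air rat.

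Fkbp5 had the largest difference of the 7. Its signal was 6.92, 6.91, 6.29 and 6.48 in Air rats 96, 107, 163 and 168, and 8.89, 8.80, 8.34 and 8.30 in PH3 rats 98, 109, 115 and 116. The groups lay more than 1 log2 unit apart, with rats 98 and 109 the highest. The difference was 1.94 ± 0.25 (3.82-fold, limma adjusted p = 0.000176, higher in 4 of 4 rats). A second Fkbp5 probe set differed by 1.50 ± 0.27 and passed too when every probe set was tested on its own (limma adjusted p = 0.0224).

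Pdk4, pyruvate dehydrogenase kinase 4, stood at 10.11, 10.27, 10.45 and 10.08 in the Air rats and at 11.68, 11.85, 11.16 and 11.28 in the PH3 rats, in the same order. The groups did not overlap, and again rats 98 and 109 were the highest. The difference was 1.26 ± 0.16 (2.40-fold, limma adjusted p = 0.000176). A dimmer Pdk4 probe set differed by 1.85 ± 0.53 without overlap but did not pass (limma adjusted p = 0.348), and the mean of both Pdk4 probe sets did not pass either (1.56, adjusted p = 0.134). The other genes around the pyruvate dehydrogenase complex (11 measured, median difference 0.03) held 1 other whose groups did not overlap. Pdp2, a phosphatase that reactivates the complex, stood at 8.85, 8.65, 8.53 and 8.71 in Air and at 8.47, 7.95, 8.34 and 8.28 in PH3, a difference of -0.43 ± 0.11 without overlap that did not pass (limma adjusted p = 0.257). Of 315 genes in all (2.34%) the PH3 arrays lay below every Air array, and of 255 (1.9%) above.

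Cebpb encodes C/EBPβ, a transcription factor of metabolic and acute-phase genes that glucocorticoids and cyclic AMP both induce. Its signal was 8.95, 8.90, 8.82 and 8.50 in Air and 10.22, 10.20, 9.38 and 10.08 in PH3. Rat 115 stood well below the other 3 PH3 rats and yet above every Air rat. The difference was 1.18 ± 0.22 (2.27-fold, limma adjusted p = 0.0262). Its sister gene Cebpd read 7.11, 7.08, 7.10 and 7.09 in Air against 8.62, 8.18, 7.49 and 7.91 in PH3, with rat 115 again the lowest of the PH3 rats. The Cebpd groups did not overlap, but the difference of 0.96 ± 0.32 did not pass (limma adjusted p = 0.451).

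Irf2bp2 encodes a transcriptional corepressor that also partners with VGLL4 in heart muscle. Its values were 10.11, 10.17, 9.95 and 9.95 in Air and 11.07, 10.96, 10.39 and 10.54 in PH3, without overlap and with rats 98 and 109 at the top. The difference was 0.70 ± 0.13 (limma adjusted p = 0.0203). Its relatives Irf2bp1 (7.13 in Air, 7.25 in PH3) and Irf2bpl (9.51 and 9.52) had overlapping groups, and neither passed (limma adjusted p of 0.895 and 0.989).

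Sox17, Klf4 and Id1 are transcription regulators that endothelial cells of the heart express, although other cells make Klf4 and Id1 as well. Sox17, a factor of arterial endothelium, stood at 7.70, 7.62, 7.54 and 7.28 in Air and at 8.51, 8.49, 8.33 and 8.56 in PH3. All 4 PH3 rats were close together and above the controls, a difference of 0.94 ± 0.16 (limma adjusted p = 0.0108). The other pair of Sox17 probe sets had Air means of 3.995 and 4.01, below the 4.40 that nonspecific control probe sets reached when the GC25 set, which read 5.16 to 6.30 on these arrays, was left out. They had differences of 0.24 ± 0.18 and 0.46 ± 0.21 that did not pass.

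Klf4, a shear- and stress-responsive Krüppel-like factor, was 8.95, 9.26, 9.01 and 9.26 in Air and 9.83, 9.65, 9.75 and 9.77 in PH3 (0.63 ± 0.12, limma adjusted p = 0.0391). Id1, an inhibitor of basic helix-loop-helix factors and a standard target of BMP signalling, was the tightest of the 7: 10.16, 10.24, 10.23 and 10.18 in Air against 10.79, 10.74, 10.79 and 10.68 in PH3. Its difference was 0.55 ± 0.11 (limma adjusted p = 0.0415), beside SDs of 0.04 in Air and 0.06 in PH3 (n = 4 each). The 15 endothelial markers as a list had a median difference of 0.04, and Sox17 was the 1 of them that passed, beside 0.0521% of all genes that passed as higher. Their list means ran from 8.78 to 8.90 in Air and from 8.77 to 9.13 in PH3, with overlap.

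Fkbp5 and Pdk4 passed in each of the 8 fits that left out 1 array, and the other 5 did not. Sox17 and Irf2bp2 passed in 3 of the 8, Cebpb and Klf4 in 1, and Id1 in 0 (its adjusted p ran from 0.0891 to 0.21). In a fit of the 8 arrays alone Irf2bp2 (adjusted p = 0.162) and Klf4 (0.0573) did not pass in limma. Without a trend in eBayes Irf2bp2, Cebpb, Klf4 and Id1 did not pass (0.0731 to 0.102), with array weights Klf4 and Id1 did not (0.0566 and 0.0546), and with the heart arrays of 1, 3 and 6 h Klf4 did not (0.0951). With every probe set tested on its own Id1 did not pass (0.0512), and with the mean of the probe sets of a gene Fkbp5 alone did. The number of higher genes was 3 without Air rat 96, 5 without 107, and 2 without 163 or 168. It was 2 without PH3 rat 98 or 109, 5 without 115 and 3 without 116. An array of another group moved it the other way. The 6 h PH3 heart array of rat 141 had the lowest mean correlation with its own group of the 29 heart arrays (0.975), and without it 16 genes passed as higher and 3 as lower, in an alternative added after seeing the data. Those 16 held all 7 genes above plus Cebpd, Sgk1, Errfi1, Fosl2, Sdc4, Plat, Baiap2, Rgcc and Tcim, and the 3 lower were Rasl11b, Rev3l and Zfp46. Sdc4, Plat, Rev3l and Zfp46 are named here from that alternative alone. Among them Sdc4, a heparan sulfate proteoglycan of the cell surface, read 8.14, 8.61, 8.14 and 8.35 in Air and 9.65, 9.24, 8.86 and 9.23 in PH3. Plat, tissue plasminogen activator, read 9.21, 9.26, 9.24 and 9.22 against 9.71, 9.56, 9.67 and 9.78, a small difference of 0.45 ± 0.13 between tight groups.

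The promoters of the 7 genes that passed were searched for short motifs where RefSeq gives one. A window of 300 bases, from 250 before to 50 after the start of transcription, was found for 6 of the 7 on the rat build GRCr8, and not for Sox17. Both strands were searched for the glucocorticoid receptor half-site AGAACA, the receptor's palindrome (that half-site, 3 bases of any kind and its reverse complement, so that each palindrome also counts as half-sites), the CREB half-site TGACG, the CCAAT box CCAAT, the forkhead site GTAAACA and the TATA box TATAAA. The windows of 4 genes are printed from 5′ to 3′, with matches on either strand in capitals: Fkbp5 and Pdk4, the pair that passed in each fit without 1 array, and Cebpb and Id1, which hold a CREB or a receptor half-site.
Fkbp5, chr20:6543506-6543805, - strand: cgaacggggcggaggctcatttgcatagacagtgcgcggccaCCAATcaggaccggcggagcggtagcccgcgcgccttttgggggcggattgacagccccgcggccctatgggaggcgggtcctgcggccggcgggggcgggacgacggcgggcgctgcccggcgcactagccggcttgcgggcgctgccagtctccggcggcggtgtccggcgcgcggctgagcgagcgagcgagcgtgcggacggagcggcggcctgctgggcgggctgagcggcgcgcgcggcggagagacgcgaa
Pdk4, chr4:34568280-34568579, - strand: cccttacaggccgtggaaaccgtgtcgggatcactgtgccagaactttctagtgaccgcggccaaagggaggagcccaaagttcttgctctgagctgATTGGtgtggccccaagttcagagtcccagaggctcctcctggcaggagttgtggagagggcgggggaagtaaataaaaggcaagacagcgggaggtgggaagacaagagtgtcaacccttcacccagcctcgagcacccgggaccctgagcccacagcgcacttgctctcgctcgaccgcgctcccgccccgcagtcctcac
Cebpb, chr3:176816755-176817054, + strand: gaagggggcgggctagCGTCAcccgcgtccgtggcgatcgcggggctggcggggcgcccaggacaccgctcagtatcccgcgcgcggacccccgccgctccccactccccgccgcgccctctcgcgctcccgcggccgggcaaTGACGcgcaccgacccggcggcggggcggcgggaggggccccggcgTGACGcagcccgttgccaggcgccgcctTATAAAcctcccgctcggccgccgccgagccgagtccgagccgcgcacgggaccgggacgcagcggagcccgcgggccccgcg
Id1, chr3:161671314-161671613, + strand: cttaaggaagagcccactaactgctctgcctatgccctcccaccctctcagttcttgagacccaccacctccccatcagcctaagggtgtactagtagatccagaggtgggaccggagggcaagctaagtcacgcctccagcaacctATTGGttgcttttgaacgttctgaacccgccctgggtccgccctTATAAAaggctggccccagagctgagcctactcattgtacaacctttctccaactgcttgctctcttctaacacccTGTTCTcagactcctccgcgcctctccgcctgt
Fkbp5 held CCAAT starting 208 bases before its start, and Pdk4 held it in reverse, 153 bases before. Cebpb held TGACG at 3 places, 234, 107 and 61 bases before its start, and TATAAA 33 bases before. Id1 held a reverse AGAACA 17 bases after its start, a reverse CCAAT 103 bases before and TATAAA 59 bases before. Klf4 held only reverse TATAAA, and Irf2bp2 none of these motifs. The full palindrome and the forkhead site were in 0 of the 6 windows. Among all 33469 promoter windows of that table, CCAAT was in 37.5%, TGACG in 21.2%, AGAACA in 20.7%, TATAAA in 14.2%, GTAAACA in 3.78% and the palindrome in 0.0149%. These are matches of letters in a short window and say nothing of factors bound there or farther away.

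Genes known to be induced by glucocorticoids lay high as a list. Of 33 listed, 30 were measured: 3 passed as higher (Fkbp5, Pdk4 and Cebpb) and 0 as lower, beside 0.0521% and 0% of all genes. All 30 had a positive difference (the smallest 0.0050, in Dusp1), and the median was 0.58, against -0.02 over all genes tested. The PH3 arrays lay above every Air array for 12 of the 30 and below for 0, beside 1.9% and 2.34% of all genes. The list mean was 8.14, 8.07, 8.19 and 7.93 in the Air rats and 8.91, 8.67, 8.52 and 8.82 in the PH3 rats. So the lowest PH3 heart, that of rat 115, still exceeded the highest Air heart. The list was chosen with results of these arrays known and is a description, not a test.

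**Figure D2:**
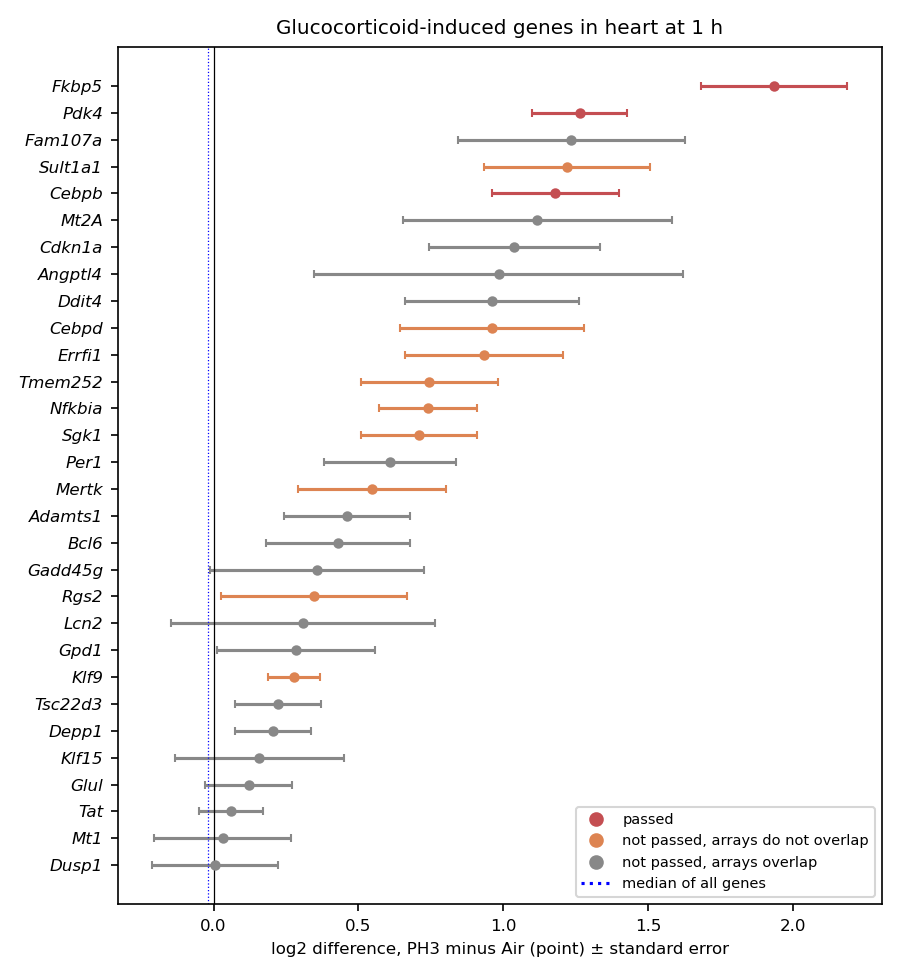
Log2 difference (PH3 minus Air) ± standard error in heart at 1 h for the 30 measured glucocorticoid-induced genes, coloured by whether they passed and whether the 4 PH3 arrays lay clear of the 4 Air arrays; the dotted line is the median of all genes, -0.02. All 30 points lie above 0, and Fkbp5, Pdk4 and Cebpb are the 3 that passed.

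The other 27 did not pass. Nfkbia, the inhibitor that holds NF-κB in the cytoplasm, read 9.99, 9.80, 9.72 and 9.59 in Air and 10.95, 10.62, 10.15 and 10.34 in PH3 (0.74 ± 0.17, limma adjusted p = 0.149). Sult1a1, a phenol sulfotransferase, read 7.43, 7.51, 7.72 and 7.39 against 8.98, 8.61, 8.32 and 9.02 (1.22 ± 0.29, adjusted p = 0.155). Neither pair of groups overlapped. Sgk1, a kinase that regulates ion channels and transporters, read 8.48, 8.30, 8.13 and 8.06 against 9.25, 8.71, 9.03 and 8.80 (0.71 ± 0.20, adjusted p = 0.333). Errfi1, an inhibitor of EGF receptors, read 8.18, 7.82, 8.19 and 7.71 against 9.52, 9.01, 8.41 and 8.70 (0.93 ± 0.27, adjusted p = 0.371). Tmem252 and Klf9 likewise had no overlap, with differences of 0.74 ± 0.24 and 0.28 ± 0.09 (limma adjusted p of 0.426 and 0.441). In Cdkn1a, the cell cycle inhibitor p21, the difference was 1.04 ± 0.30 (limma adjusted p = 0.333), but the groups overlapped, because Air rat 96 at 9.17 stood above PH3 rat 115 at 8.85. Ddit4, an inhibitor of mTORC1, overlapped in the same way (0.96 ± 0.30), with rat 115 at 8.43 below Air rat 163 at 8.47. Per1, a clock gene with glucocorticoid and CREB sites, differed by 0.61 ± 0.23 with overlap. Other classic targets had overlapping groups. Tsc22d3, the anti-inflammatory factor GILZ, ran from 10.80 to 10.99 in Air and from 10.89 to 11.30 in PH3, and Dusp1, a MAP kinase phosphatase, from 10.43 to 10.63 in Air and from 10.25 to 11.11 in PH3.

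Of 16 measured genes of the cyclic AMP response 0 passed, with 12 positive and 4 negative differences and a median of 0.26. The PH3 arrays lay clear above Air for 3 of them and clear below for 0, beside 1.9% and 2.34% of all genes. Of 27 immediate early genes 1 passed (Klf4), beside 0.0521% of all genes that passed as higher. The 27 had 23 positive and 4 negative differences and a median of 0.25, with 5 clear above and 0 clear below. The mean of the cyclic AMP list was 6.46 to 6.64 in Air and 6.81 to 7.17 in PH3, and that of the immediate early genes 6.94 to 7.04 and 7.12 to 7.51, so that every PH3 rat lay above every Air rat in both. The lists share members, and the cyclic AMP median was 0.04 when every probe set was counted. Sik1, a CREB-induced kinase that shuts CREB coactivators out of the nucleus, read 6.68, 6.50, 6.65 and 6.49 in Air and 7.88, 7.24, 7.46 and 7.04 in PH3, without overlap (0.82 ± 0.26, limma adjusted p = 0.405). Nr4a1, an orphan nuclear receptor, read 5.37, 6.31, 6.60 and 6.51 against 8.12, 7.12, 7.84 and 6.68, also without overlap (1.24 ± 0.51, adjusted p = 0.554). The PH3 rats spread over more than 1 log2 unit in Nr4a1, and rat 116 lay just above Air rat 163. Fosb (0.86 ± 0.37) and Fosl2 (0.78 ± 0.24), both AP-1 subunits, had no overlap but low signals, with Air means of 4.23 and 3.83, below that level of 4.40. Irs2, the insulin receptor substrate that both FOXO factors and CREB induce, differed by 0.68 ± 0.26 with overlap. The 17 FOXO targets had a median of 0.17, with Pdk4 the 1 that passed and Sesn1, a stress-induced inhibitor of mTORC1, at 0.34 ± 0.13 without overlap.

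**Figure D3:**
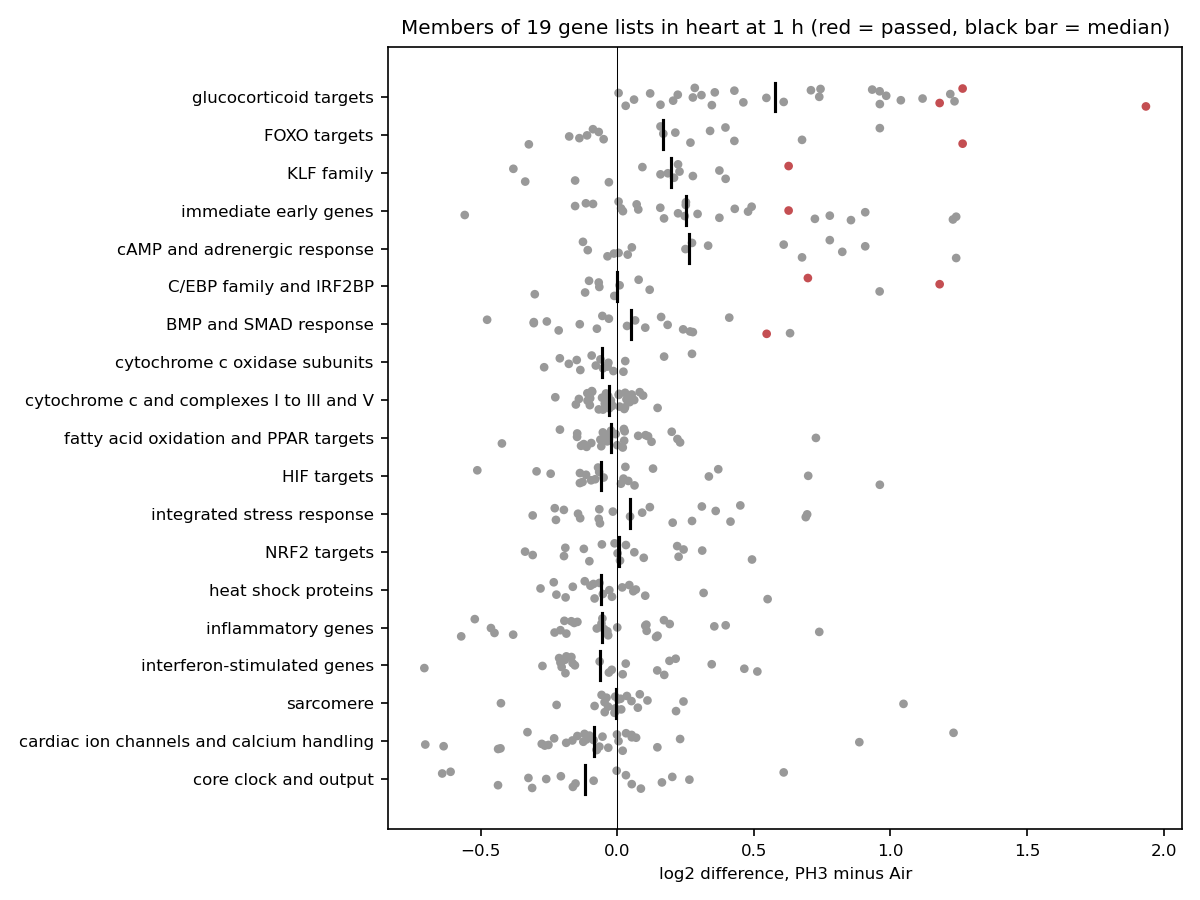
Log2 difference (PH3 minus Air) in heart at 1 h for each measured member of 19 gene lists (points; red where the gene passed) with the median of each list as a black bar. The glucocorticoid list has the highest median drawn, 0.58, and the respiratory chain, sarcomere and heat shock lists lie around 0.

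No measured gene of the respiratory chain passed. Of 16 measured subunits of cytochrome c oxidase 0 passed, and the differences ran from -0.27 to 0.27 with a median of -0.06. They were positive in 4 and negative in 12. The PH3 arrays lay clear above Air for 0 of the 16 and clear below for 2, beside 1.9% and 2.34% of all genes. In Cox6b1 the Air rats read 12.90, 12.84, 12.79 and 12.83 and the PH3 rats 12.75, 12.51, 12.70 and 12.57, without overlap (-0.21 ± 0.07, limma adjusted p = 0.451). Cox7c read 12.49, 12.51, 12.51 and 12.56 against 12.42, 12.29, 12.45 and 12.19, again lower without overlap (-0.18 ± 0.06). The 39 genes of cytochrome c and the other complexes had a median of -0.03 and 0 passed. Ndufb6, of complex I, read 12.10 to 12.19 in Air and 11.86 to 11.96 in PH3. The 19 assembly factors of cytochrome c oxidase had a median of 0.0012.

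Fuel genes other than Pdk4 did not pass. Of 29 measured genes of fatty acid oxidation and PPAR targets 0 passed, with a median of -0.02. Ucp3, a mitochondrial uncoupling protein that fatty acids induce, read 5.85, 5.73, 5.29 and 5.84 in Air and 6.87, 6.24, 6.19 and 6.33 in PH3 (0.73 ± 0.28, limma adjusted p = 0.525). Hadhb, of the trifunctional β-oxidation enzyme, was lower without overlap (-0.21 ± 0.08). The 26 genes of glucose uptake and glycolysis had a median of -0.01, and none had groups clear of each other. Outside that list, Tbc1d4, which holds back the glucose transporter GLUT4, read 6.57, 6.99, 6.61 and 6.85 in Air and 5.51, 5.38, 6.07 and 5.69 in PH3. It was lower in all 4 PH3 rats (-1.09 ± 0.25) and did not pass (adjusted p = 0.149).

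List medians for hypoxia, oxidants and protein folding lay near 0 too. The 22 measured HIF targets had a median of -0.06 and 0 passed. Ndrg1, a stress-induced growth suppressor in that list, read 8.40, 8.26, 8.08 and 8.22 in Air and 9.20, 9.20, 8.57 and 8.78 in PH3, without overlap (0.70 ± 0.19, limma adjusted p = 0.288). The 18 NRF2 targets had a median of 0.01, and Nfe2l2, which encodes NRF2 itself, was lower without overlap (-0.34 ± 0.11, adjusted p = 0.451). The integrated stress response (21 genes, median 0.05), the endoplasmic reticulum chaperones (20 genes, median -0.01), the heat shock proteins (20 genes, median -0.06) and the antioxidant enzymes (20 genes, median -0.04) held 0 genes that passed. Edem1, of the disposal of misfolded proteins, stood at 0.39 ± 0.12, and the amino acid transporter subunit Slc3a2 at 0.36 ± 0.15, both without overlap and not passing.

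Inflammatory genes lay near 0 at this time: of 29 measured 0 passed and the median was -0.05. Nfkbia was the 1 member whose PH3 arrays lay clear above, beside 1.9% of all genes. The 23 interferon-stimulated genes had a median of -0.06. Gbp2, a guanylate-binding protein, read 7.97, 7.98, 8.36 and 7.97 in Air and 7.55, 6.89, 7.63 and 7.38 in PH3, lower without overlap (-0.71 ± 0.18, limma adjusted p = 0.266). Fcgr1a, a macrophage Fc receptor, was lower with overlap (-0.74 ± 0.21, adjusted p = 0.352), while Cd163, a scavenger receptor of resident macrophages and itself a glucocorticoid-induced gene, was 0.56 ± 0.28 higher without overlap. The 11 macrophage markers ran from 7.61 to 8.09 as a list mean in Air and from 7.62 to 8.01 in PH3.

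No contractile or electrical gene passed. The 23 sarcomere genes had a median of -0.0043, and the 33 genes of ion channels and calcium handling a median of -0.09. Kcna5, the channel subunit of the atrial repolarising current, read 6.74, 6.08, 6.09 and 6.18 in Air and 8.08, 7.81, 6.76 and 7.36 in PH3, with Air rat 96 just below PH3 rat 115 (1.23 ± 0.42, limma adjusted p = 0.451). Gja1, the ventricular gap junction protein a connexin, was lower without overlap (-0.28 ± 0.11), as was Cacna2d1, a calcium channel subunit, where rat 116 alone read 6.54 and the other 3 PH3 rats 8.30 to 8.36. Of 22 genes of cardiac stress and remodelling 0 passed (median 0.10). Rcan1, a calcineurin inhibitor, stood at 0.46 ± 0.17 and Ccn2, a matricellular growth factor, at 0.55 ± 0.23, both with overlap. Popdc2, a cyclic AMP-binding membrane protein of heart muscle, read 11.21, 11.18, 10.99 and 11.03 in Air and 11.42, 11.42, 11.41 and 11.34 in PH3 (0.29 ± 0.08, adjusted p = 0.257).

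The remaining families around the 7 genes showed how far each member stood apart. A family drawn around a gene that passed holds it by choice, so its passing says nothing of the family. In the Krüppel-like family (14 measured, median 0.20, or 0.06 without Air rat 96 and PH3 rat 116) Klf4 passed and Klf9 was the other member clear above Air. Klf7 was lower without overlap (-0.38 ± 0.16). Over all genes 0.0521% passed as higher, 1.9% lay clear above and 2.34% clear below. Among 20 genes of the BMP response (median 0.05) Id1 passed. Bmp2, a ligand of that pathway, stood at 0.63 ± 0.28, and Hey2, a ventricular repressor downstream of Notch, at -0.48 ± 0.20, both with overlap. Among 17 vascular transcription factors (median -0.10) Sox17 passed, and its relatives Sox7 (9.13 in Air, 9.14 in PH3) and Sox18 (9.31 and 9.51) did not. Of 16 p53 targets and apoptosis genes 0 passed. Bcl2l1, which encodes the survival protein BCL-XL, read 6.86, 6.70, 6.43 and 6.55 in Air and 7.88, 7.28, 6.93 and 6.82 in PH3 (0.59 ± 0.19, overlapping). Of 22 cell cycle and growth genes 0 passed, and Mycn differed by -0.92 ± 0.30 at low signals.

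Beyond the lists, the 30 genes with the smallest unadjusted p whose groups did not overlap, and which did not pass, had limma adjusted p-values of 0.108 to 0.282. Of them 20 were higher and 10 lower in PH3. S1pr1, the endothelial receptor of sphingosine 1-phosphate, read 10.58, 10.34, 10.39 and 10.29 in Air and 11.26, 10.73, 10.85 and 11.03 in PH3 (0.57 ± 0.13). Lyve1, a hyaluronan receptor of lymphatic vessels and some macrophages, stood at 0.61 ± 0.16. Rgcc, a cell cycle regulator that is also expressed in endothelium, stood at 0.60 ± 0.13 and Tcim, a small regulator of Wnt signalling, at 0.69 ± 0.15. Baiap2, an adaptor protein of the actin cytoskeleton, read 5.96, 6.40, 6.06 and 5.95 against 7.01, 6.83, 7.14 and 6.98 (0.90 ± 0.19). Myl1, a myosin light chain of fast skeletal muscle, read 5.25, 6.35, 6.48 and 5.24 against 7.04, 6.74, 8.29 and 6.90 (1.41 ± 0.34). Pcdh20, a protocadherin, stood at 1.28 ± 0.30. On the lower side, Rasl11b, a small GTPase-like protein, read 8.83, 8.66, 8.27 and 8.42 in Air and 7.90, 7.24, 7.82 and 7.82 in PH3 (-0.85 ± 0.18). Dgkb, a diacylglycerol kinase (-1.16 ± 0.30), Slc5a3, a myo-inositol transporter (-0.96 ± 0.24), and the amino acid transporter Slc38a6 (-0.63 ± 0.16) were also in this group. Map4k3 (-0.45 ± 0.11), Rnf7 (-0.31 ± 0.07) and LOC100912248 (-0.63 ± 0.14) complete the lower side with Tbc1d4, Pdp2 and Gbp2, and Fbxw4 (0.38 ± 0.10) belonged to the higher side with Sult1a1, Nfkbia and Popdc2. The Air means of the other 9, Zp3, Omg, Phactr3, Pde6a, Tnfrsf14, Prss3b, Sufu, Kcnj6 and Gnat1, lay below the nonspecific level of 4.40 (GC25 left out).

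The hearts of Air rat 96 and PH3 rat 116 stood apart in markers of other chambers or cells. The 11 atrial markers had a list mean of 8.92 in Air rat 96, against 9.81 to 10.00 in the other 3 Air rats and 9.89 to 10.27 in the PH3 rats. In that rat Nppa, the atrial natriuretic peptide, read 11.68 beside 13.21 to 13.36, and Myl4, the atrial myosin light chain, 8.71 beside 11.08 to 11.58. Not every member of the list was low there. Kcna5, also in the atrial list, read 6.74 in rat 96, the highest of the Air rats. The list's median difference was 0.28 with all arrays and 0.07 without rat 96. The 13 hepatocyte markers had a list mean of 6.47 in PH3 rat 116, against 4.45 to 4.78 in the other 3 PH3 rats and 4.29 to 4.47 in Air. Alb, serum albumin, read 4.26, 3.34, 4.03 and 3.69 in Air and 8.10, 6.26, 5.05 and 11.21 in PH3, so that rat 116 stood highest and the other 3 also lay above Air (3.82 ± 1.41, limma adjusted p = 0.502). The 13 adipocyte markers had a list mean of 9.37 in rat 116, against 6.91 to 7.53 in the other PH3 rats and 6.78 to 8.14 in Air. The hepatocyte median was 0.37 with all arrays and 0.07 without rat 116, and the adipocyte median 0.36 and 0.0074. In other organs of the same rats at 1 h the hepatocyte median was 0.88 in brain and 0.12 in kidney. In hearts of other rats it was 0.19, 0.21 and -0.40 at 3, 6 and 24 h. None of the 13 hepatocyte markers passed in any of these. The arrays of rats 96 and 116 also stood apart in quality measures. Air rat 96 had the highest 3' minus 5' log2 signal of the 8 arrays, both in beta-actin (2.17) and in GAPDH (0.63). PH3 rat 116 had the lowest mean correlation with the other arrays (0.977). The part of these markers and of array quality in the differences above was not tested, beyond the values without both rats given next.

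**Figure D4:**
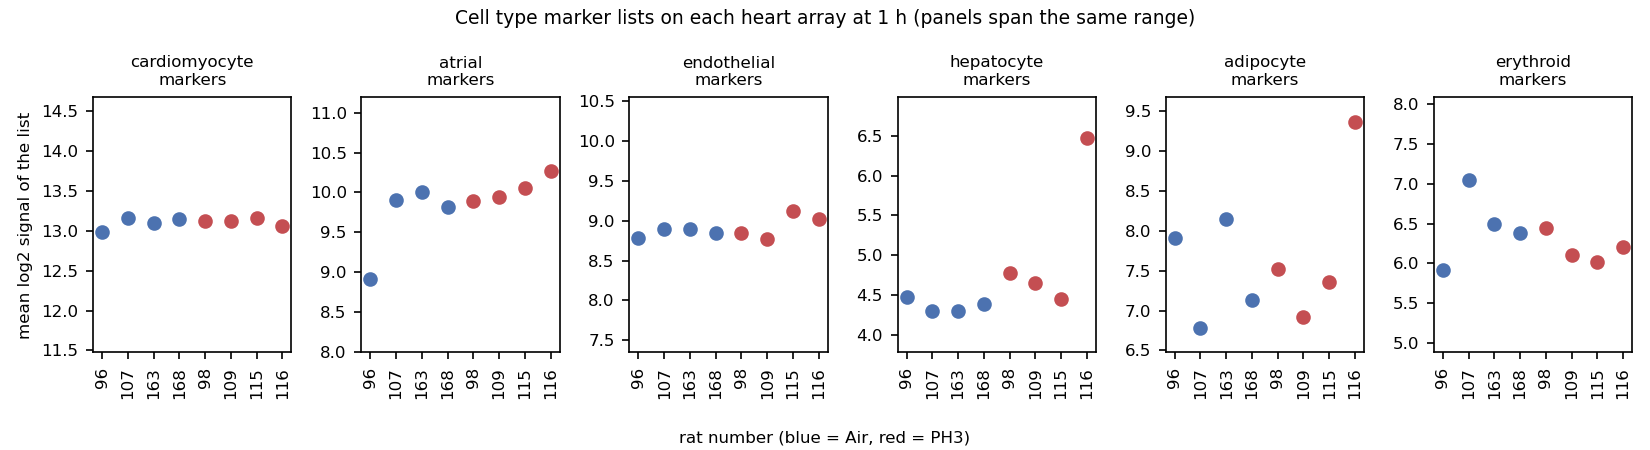
Mean log2 signal of 6 cell type marker lists on each of the 8 heart arrays at 1 h (Air blue, PH3 red; rat number below), each panel spanning the same range of log2 units. Air rat 96 is low in atrial markers (8.92) and PH3 rat 116 high in hepatocyte (6.47) and adipocyte (9.37) markers.

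With rats 96 and 116 both left out, an alternative added after seeing the data, Fkbp5 differed by 2.12 and Pdk4 by 1.30 and both passed (limma adjusted p of 0.00148 and 0.00219), as did Irf2bp2 (0.79, adjusted p = 0.0469). Sox17 (0.96), Cebpb (1.20), Klf4 (0.56) and Id1 (0.56) then had adjusted p-values of 0.0722 to 0.435, with 3 rats a group. The glucocorticoid list kept a median of 0.60. Other medians were then 0.35 for the immediate early genes, 0.15 for the cyclic AMP response, 0.06 for the Krüppel-like family and -0.05 for the atrial markers. With all arrays they were 0.25, 0.26, 0.20 and 0.28, in the same order. Of these the Krüppel-like median alone moved by more than the spread between rats.

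The other times in heart came from other rats, 4 per group at 3 h and 6 h, and 2 Air and 3 PH3 rats at 24 h. Pdk4 was also higher at 3 h (1.18, limma adjusted p = 0.0013) and at 6 h (1.63), and Fkbp5 at 3 h (1.40, adjusted p = 0.00851). Fkbp5 then stood at 0.76 at 6 h and 0.04 at 24 h, where neither passed, and Pdk4 at 0.70 at 24 h, also not passing. Sox17 stood at 0.35, 0.11 and 0.38 at 3, 6 and 24 h, Cebpb at 0.29, -0.05 and 0.39, and Irf2bp2 at -0.07, -0.16 and 0.14. Klf4 stood at 0.07, 0.32 and 0.07 and Id1 at 0.05, 0.23 and 0.10, and none of these passed. So 5 of the 7 passed in heart at 1 h and at no later time, but the difference between times is a test of its own. Of the 35 differences between the effect of these genes in heart at 1 h and that at a later time or in another organ, 34 did not pass, and that of Irf2bp2 at 1 h minus 6 h did (0.86 ± 0.18, adjusted p = 0.0295). It did not pass without Air rat 163 or 168 or without PH3 rat 98 or 109 (adjusted p of 0.0717 to 0.0856), nor without the 6 h array of rat 141 (0.0595).

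**Figure D5:**
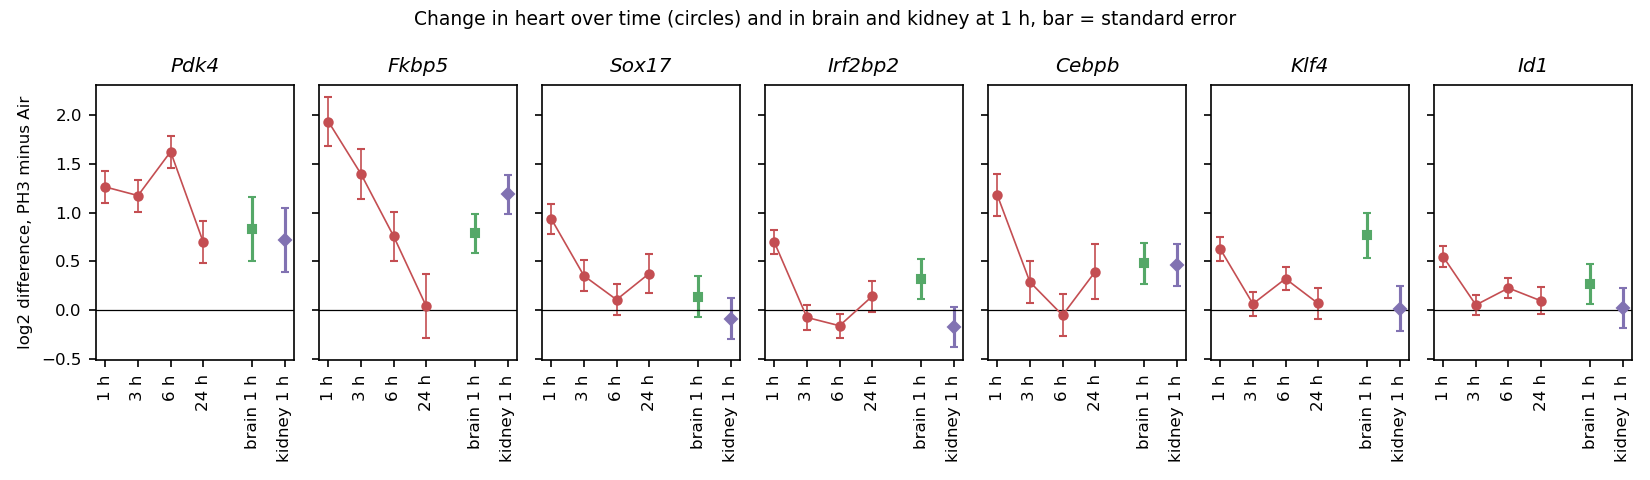
Log2 difference (PH3 minus Air) ± standard error of the 7 genes in heart at 1, 3, 6 and 24 h (circles, different rats at each time, 24 h with 2 Air and 3 PH3 rats) and in brain (square) and kidney (diamond) of the same 8 rats at 1 h. Fkbp5 in heart runs from 1.94 at 1 h to 0.04 at 24 h, while Pdk4 is between 0.70 and 1.63 at all 4 times.

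Across all genes the 1 h effect in heart differed from that at 6 h for 28 genes, 4 with a positive difference (0.0298%) and 24 with a negative one (0.179%). The 10 with the smallest p are named here, and none of them had passed at 1 h. Ccl2, the monocyte chemokine, stood at -0.19 at 1 h and 3.33 at 6 h (difference -3.52 ± 0.57, limma adjusted p = 0.00369). Abhd2, a lipid hydrolase, stood at 0.06 and 2.51 (-2.46 ± 0.36), Lmcd1, a LIM-domain regulator in heart muscle, at 0.11 and 1.86 (-1.75 ± 0.32), and Pdlim3, an actinin-associated protein of the Z-disc, at 0.05 and 1.12 (-1.06 ± 0.17). Ier5 (-1.25 ± 0.22), Polb (-0.997 ± 0.18), Lgr4 (-1.16 ± 0.22) and Ppp2r2a (-0.66 ± 0.11) went the same way. Klhl31, a Kelch protein of striated muscle, was the other way, with 0.17 at 1 h and -0.69 at 6 h (0.86 ± 0.13). Rasl11b stood at -0.85 at 1 h and 0.72 at 6 h (-1.57 ± 0.26, adjusted p = 0.00369). The difference between 1 h and 3 h passed for 0 genes in limma (1260 at an unadjusted p under 0.05, smallest adjusted p 0.0939), and that between 1 h and 24 h for 0 (465, smallest adjusted p 0.578). Leaving out 1 array at 1 h moved the 28 to between 16 (without Air rat 107, 163 or 168 or PH3 rat 98) and 38, with 18 without PH3 rat 109. Array weights gave 79 genes and a fit without a trend 18.

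As a list, the glucocorticoid-induced genes had medians of 0.58, 0.31, 0.37 and 0.28 in heart at 1, 3, 6 and 24 h, beside -0.02, -0.03, -0.01 and -0.02 over all genes. The number that passed as higher was 3, 2, 5 and 0, beside 0.0521%, 0.067%, 1.41% and 0% of all genes (and 0.171% and 1.29% that passed as lower at 3 and 6 h), and at 6 h they were Adamts1, Angptl4, Mt2A, Pdk4 and Rgs2. Of these Pdk4 alone had passed at 1 h. The inflammatory list stood at -0.05 at 1 h, -0.15 at 3 h and 0.61 at 6 h, and the immediate early genes at 0.25, -0.03 and 0.60. These list medians were not tested against each other.

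Brain and kidney were taken from the same 8 rats at 1 h. In kidney Fkbp5 was higher too (1.19, limma adjusted p = 0.00336), and in brain it stood at 0.79 and did not pass. Pdk4 stood at 0.83 in brain and 0.72 in kidney, Cebpb at 0.48 and 0.47, Klf4 at 0.77 and 0.02, Id1 at 0.27 and 0.02, Sox17 at 0.14 and -0.09, and Irf2bp2 at 0.32 and -0.17, and none of these passed. Over all genes the effect in heart differed from that in brain for 1 gene (0.00744%). Gnb3, a G protein subunit, stood at -0.44 in heart and 1.67 in brain (-2.11 ± 0.33, adjusted p = 0.0175). From kidney it differed for 2 (0.0149%), or 79 with array weights, and those 2 are both of the integrated stress response: Gdf15, a stress cytokine, at 0.31 in heart and 2.22 in kidney (-1.91 ± 0.27, adjusted p = 0.0044), and Ddit3, the factor CHOP, at -0.07 and 1.49 (-1.56 ± 0.24, adjusted p = 0.011). With the rat as a block the same 1 and 2 genes passed. Gnb3 did not pass without rat 96, 163, 168, 98, 109 or 115 (adjusted p of 0.0633 to 0.362). Gdf15 did not pass without 163, 168 or 98 (0.0522 to 0.0789), nor Ddit3 without 163, 168, 98 or 109 (0.0775 to 0.107). The count against brain was 0 without any of those 6 rats and 10 without PH3 rat 116. Against kidney it was 0 without 163, 168 or 98, 1 without 109, 9 without 115 and 8 without 116. The glucocorticoid list had a median of 0.35 in brain and 0.22 in kidney, beside 0.01 and -0.06 over all genes. Of its members Tmem252 passed in both organs and Fkbp5 in kidney, where 0.0595% of all genes passed as higher in brain and 0.313% in kidney.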

How the data were processed

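RNA from frozen hearts was amplified and hybridised to Affymetrix rat arrays, per the labels' protocols. The authors deposited log2 values per probe set, and the submitters' processing notes name Partek, Affymetrix Expression Console and RMA without versions. Which arrays were normalised together is not given in the sources used here. Groups came from the sample titles. Probe sets with 1 symbol (19068 of 31139; 573 had several and 11498 none) were reduced to the brightest in heart for each of 13438 genes. limma 3.58.1 in R 4.3.3 (lmFit, eBayes with trend) was fitted to the 29 heart arrays in 8 groups, with no further normalisation, and differences between organs to the 24 arrays of heart, brain and kidney at 1 h. The Benjamini-Hochberg threshold was 0.05. Differences between times and organs were interaction contrasts. No 2 heart arrays were identical. The code was tested on simulated data. The members and gene lists were chosen with earlier results of these data known.

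Named genes were those that passed, up to 30 further genes with the smallest unadjusted p whose arrays did not overlap, members of the gene lists, and up to 10 genes per difference that passed. Other sets of arrays, normalisations, filters, probe set rules, array weights, each array left out and, for organs, the rat as a block were tried. Organs with the same rat number come from the same animal by the titles, so the numbers pair them.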

Additional observations from a re-analysis of the deposited data

Results flagged for a closer look

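In 17 of 282 groups of 4 rats tested (6.03%, beside 5% by chance) 1 rat lay far from the other 3. Rat 109 accounted for 5 of them, and rats 98 and 116 for 3 each. PH3 rat 109 was lowest in Rasl11b (7.24), Gja1 (11.87), the Notch pathway mean (6.26) and the cytochrome c oxidase subunit mean (10.51), and highest in Prss3b (4.04). PH3 rat 98 was highest in the means of FOXO targets (9.29), the cyclic AMP response (7.17) and thymus and lymphoid markers (7.09). PH3 rat 116 was highest in the integrated stress response mean (7.27) and the hepatocyte marker mean (6.47), and lowest in Cacna2d1 (6.54). PH3 rat 115 was lowest in Cebpb (9.38). Among the Air rats, 163 was highest in Gbp2 (8.36) and the fibroblast marker mean (10.50), 107 highest in Irs2 (7.74) and lowest in Cd163 (6.35), and 96 highest in Kcna5 (6.74).

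The exposure effect in heart at 1 h differed from that at 6 h, by a limma interaction contrast, in Abhd2 (-2.46), Klhl31 (0.86), Ppp2r2a (-0.66), Ccl2 (-3.52), Pdlim3 (-1.06), Rasl11b (-1.57), Ier5 (-1.25), Polb (-0.997), Lmcd1 (-1.75), Lgr4 (-1.16) and Irf2bp2 (0.86). It differed from that in brain in Gnb3 (-2.11), and from that in kidney in Gdf15 (-1.91) and Ddit3 (-1.56).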

How the results depend on the processing

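Of 1565 values of named genes under alternatives, 1496 kept their direction and their side of the threshold. Of the others, 52 no longer passed, 17 newly passed and 0 reversed. All 52 belonged to the 7 genes that passed, since no other gene could stop passing. So the 1496 say little of how stable those 7 calls were. Several alternatives changed the spread and not the difference, and could not reverse it. The 7 higher genes became 3 without a trend in eBayes, 1 (Fkbp5) with the mean of all probe sets of a gene, 2 to 5 without 1 array, 3 without Air rat 96 and PH3 rat 116, and 16 without the 6 h array of rat 141. The 0 lower genes became 0 to 1 without 1 array and 3 without the array of rat 141. The 28 genes that differed between 1 h and 6 h became 79 with array weights, 18 without a trend and 16 to 38 without 1 array. Array weights gave 2 genes for heart minus brain and 79 for heart minus kidney, and leaving out 1 rat gave 0 to 10 and 0 to 9. With the rat as a replicate block the counts were 1 and 2, and the block changed no call. The cause of these shifts was not tested. Of 1025 list medians under alternatives 11 moved by more than the spread between rats. The glucocorticoid median was 0.43 with every probe set and 0.71 with the dimmest genes left out. Signals under 4.40, the highest nonspecific control with GC25 left out, cannot be told from background.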
